A study of Mus musculus with 8 samples.

Results

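Olfr1177 to Olfr1318 are odorant receptor genes of mouse chromosome 2, numbered in their order along it except that Olfr1205 lies before Olfr1204. Members were all genes of the deposited table named Olfr with a number in that range and no suffix. The rule found 111 of the 22553 genes in the table, and 111 of its 1104 receptors named this way. The other 993 receptors serve for comparison. Olfr1178 and Olfr1318 are the first and last members. Just outside the range lie Olfr1176, with 50 footprints in Ngn1-GFP KO, 124 in Ngn1-GFP control, 77 in OMP-GFP KO and 61 in OMP-GFP control, and Olfr1320, with 21, 17, 33 and 30 in the same order, against 232, 239, 139 and 199 for Olfr1178 and 0, 5, 0 and 5 for Olfr1318.

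Footprints, which are pieces of mRNA shielded by a translating ribosome, and input RNA were sequenced from sorted cells of the main olfactory epithelium of mice. The Ngn1-GFP KO group carried Mex3a flox/flox, a Cre driver and the Ngn1-GFP transgene. The Ngn1-GFP control group carried Mex3a flox/flox or flox/+ and Ngn1-GFP without a Cre driver. The OMP-GFP KO group carried Mex3a flox/flox, a Cre driver and the OMP-ires-GFP knock-in, and the OMP-GFP control group carried Mex3a flox/flox or flox/+ and OMP-ires-GFP without a Cre driver. The genotype tag of the OMP-GFP KO samples reads OMP-ires-Cre, and their description reads OMP-ires-GFP. Ngn1-GFP cells are immediate neuronal progenitors and immature olfactory sensory neurons, and OMP-GFP cells are mature olfactory sensory neurons. Mex3a encodes an RNA-binding protein with a RING domain. Age, strain and sex were not used here.

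An odorant receptor is a G protein-coupled receptor of the cilia of an olfactory sensory neuron, where it acts through the G protein subunit encoded by Gnal, the adenylyl cyclase Adcy3 and the channel subunit Cnga2. Each neuron settles on 1 allele of 1 receptor gene during maturation, so the level of a receptor in sorted cells follows both the number of cells that chose it and the mRNA in each of them. These cannot be told apart here. Immature neurons can hold low levels of several receptor mRNAs before the choice is complete, and Lhx2, Ldb1 and the Ebf factors act on enhancers that serve whole receptor clusters.

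All 111 genes lie on chromosome 2 in GRCm38.p6 and are protein coding in RefSeq. They form a proximal block of 75 genes from Olfr1178 to Olfr1272 (chromosome 2, 88391249 to 90282573) and a distal block of 36 genes from Olfr1275 to Olfr1318 (chromosome 2, 111230853 to 112157007), with a gap of 20949 kb between them. Their coding length was 912 to 1064 bases, with a median of 936. RefSeq synonyms place 110 of them in 15 families of the MOR nomenclature. The distal block holds MOR245 with 21 genes and MOR248 with 15. The proximal block is led by MOR231 and MOR233 with 17 genes each, MOR225 with 10, MOR230 with 8 and MOR232 with 7. The annotated gene of Olfr1280 spans Olfr1281, Olfr1282 and Olfr1283, while the counts are over coding sequences.

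RefSeq promoter windows of 250 bases before and 50 bases after the annotated start (GRCm38.p6) were found for 96 of the 111 members. In 75 of them the window's start site is an ATG, so that the annotation begins at the coding sequence, and in 21 it is not. The windows of 4 of these are printed here because each belongs to a member whose values are described later: Olfr1180 and Olfr1205 from runs of neighbours with low RNA in both KO columns, Olfr1199 with low footprints in both, and Olfr1299 from the distal block. Capitals mark matches to TAATNA, a homeodomain-type motif, searched on both strands of the 250 bases before the start.
Olfr1180, chr2:88412640-88412939, minus strand: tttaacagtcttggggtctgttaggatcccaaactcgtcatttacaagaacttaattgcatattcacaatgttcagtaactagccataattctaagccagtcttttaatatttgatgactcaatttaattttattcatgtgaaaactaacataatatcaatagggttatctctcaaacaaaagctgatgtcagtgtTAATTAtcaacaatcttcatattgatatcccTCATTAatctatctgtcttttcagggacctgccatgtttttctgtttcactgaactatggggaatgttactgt
Olfr1199, chr2:88760436-88760735, minus strand: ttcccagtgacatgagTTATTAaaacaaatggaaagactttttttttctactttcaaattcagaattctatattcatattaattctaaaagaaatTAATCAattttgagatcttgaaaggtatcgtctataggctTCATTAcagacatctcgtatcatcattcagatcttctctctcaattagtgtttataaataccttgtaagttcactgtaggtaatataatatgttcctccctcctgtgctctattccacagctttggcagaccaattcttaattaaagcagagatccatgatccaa
Olfr1205, chr2:88829507-88829806, plus strand: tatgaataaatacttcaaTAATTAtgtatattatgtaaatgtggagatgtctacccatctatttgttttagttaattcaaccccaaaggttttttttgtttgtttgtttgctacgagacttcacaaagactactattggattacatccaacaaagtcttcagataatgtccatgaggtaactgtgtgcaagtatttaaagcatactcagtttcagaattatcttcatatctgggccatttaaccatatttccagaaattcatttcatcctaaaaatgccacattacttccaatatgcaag
Olfr1299, chr2:111661203-111661502, plus strand: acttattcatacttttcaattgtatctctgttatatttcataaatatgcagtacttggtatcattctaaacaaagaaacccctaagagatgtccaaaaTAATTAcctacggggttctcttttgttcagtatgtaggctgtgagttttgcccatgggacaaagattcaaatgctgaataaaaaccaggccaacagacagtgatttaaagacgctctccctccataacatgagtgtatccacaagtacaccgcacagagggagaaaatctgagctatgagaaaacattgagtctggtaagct
TAATNA was present in 77 of the 96 member windows (80.2%), in 62.1% of 834 windows of other receptors and in 24.8% of all 27025 windows. TATAAA was present in 51.0% of member windows, 38.0% of other receptor windows and 13.0% of all windows. Only 1825 of all 27025 windows start at an ATG, so the sets are unlike. Where the start is not an ATG, TAATNA was in 90.5% of 21 member, 64.6% of 226 other receptor and 23.0% of 25200 windows overall. TATAAA was in 47.6%, 29.6% and 11.8% of them. These are matches of letters and were not tied to any measured binding.

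The deposited table has 1 column of footprint counts and 1 of RNA counts for each group, although the labels list 2 footprint libraries per group. The spread between animals can therefore not be computed, and differences between columns stand without a check on replicates. Square brackets hold 95% intervals of the log2 ratio, which cover counting error only, since reads amplified by PCR are not independent molecules and the labels mention no molecular identifiers. A member is called higher or lower where the pair of columns held 20 or more counts, the TMM-scaled difference was 2-fold or more and the interval excluded no difference. A column at 0 was set to 3 counts, and its fold is then written "at least". The columns held 3031489, 4456989, 4100841 and 3576406 footprints, and 27786809, 89327877, 26946592 and 31855259 RNA reads, in the order Ngn1-GFP KO, Ngn1-GFP control, OMP-GFP KO and OMP-GFP control. Mex3a itself, on chromosome 3, had 28 footprints in Ngn1-GFP KO against 437 in Ngn1-GFP control, and 5 in OMP-GFP KO against 16 in OMP-GFP control. Its RNA was lower by 2.25 and 3.09 on the log2 scale in the KO columns of Ngn1-GFP and OMP-GFP cells.

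Markers of cells other than neurons differed between the columns. The summed footprints of 10 sustentacular cell markers, none of them at 0, were 618 CPM (counts scaled to library size) in Ngn1-GFP KO against 5070 CPM in Ngn1-GFP control, and 587 CPM in OMP-GFP KO against 158 CPM in OMP-GFP control. All 10 sustentacular markers were called lower in Ngn1-GFP KO, and 7 of 9 were called higher in OMP-GFP KO. The summed footprints of 11 nasal gland markers were 874 CPM in Ngn1-GFP KO against 484 CPM in Ngn1-GFP control, and 600 CPM in OMP-GFP KO against 89.3 CPM in OMP-GFP control, with Muc5ac and Obp1b at 0 in Ngn1-GFP KO and Obp1b at 0 in both OMP-GFP columns. Of 10 gland markers with enough footprints, 1 was called higher and 2 lower in Ngn1-GFP KO, and 7 were called higher in OMP-GFP KO. The RNA column of Ngn1-GFP control held 597 genes at least 8-fold above every other RNA column, and 4.87% of its reads came from them, while Ngn1-GFP KO had 14 such genes, OMP-GFP KO 5 and OMP-GFP control 1. The part of these differences in the receptor results was not tested. The 11 mature neuron markers summed to 15000, 12996, 27808 and 23854 footprint CPM in Ngn1-GFP KO, Ngn1-GFP control, OMP-GFP KO and OMP-GFP control, higher in both OMP-GFP columns than in the Ngn1-GFP columns.

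Fewer of the receptors had any footprint in both KO columns. Of the 111 members, 75 were detected in Ngn1-GFP KO against 103 in Ngn1-GFP control, and 77 in OMP-GFP KO against 102 in OMP-GFP control. Thinned to the depth of the smallest column, 67.6% were detected in Ngn1-GFP KO against 91.4% in Ngn1-GFP control, and 68.2% in OMP-GFP KO against 90.9% in OMP-GFP control. Among the other 993 receptors the shares were 83.1% against 90.5% in Ngn1-GFP cells and 81.6% against 90.7% in OMP-GFP cells. The shares of members and other receptors were close in the control columns, and the members' shares were below those of the other receptors in both KO columns. A count of 0 still allows a level of up to 0.938 CPM in Ngn1-GFP KO, 0.609 CPM in Ngn1-GFP control, 0.811 CPM in OMP-GFP KO and 0.881 CPM in OMP-GFP control.

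**Figure D1:**
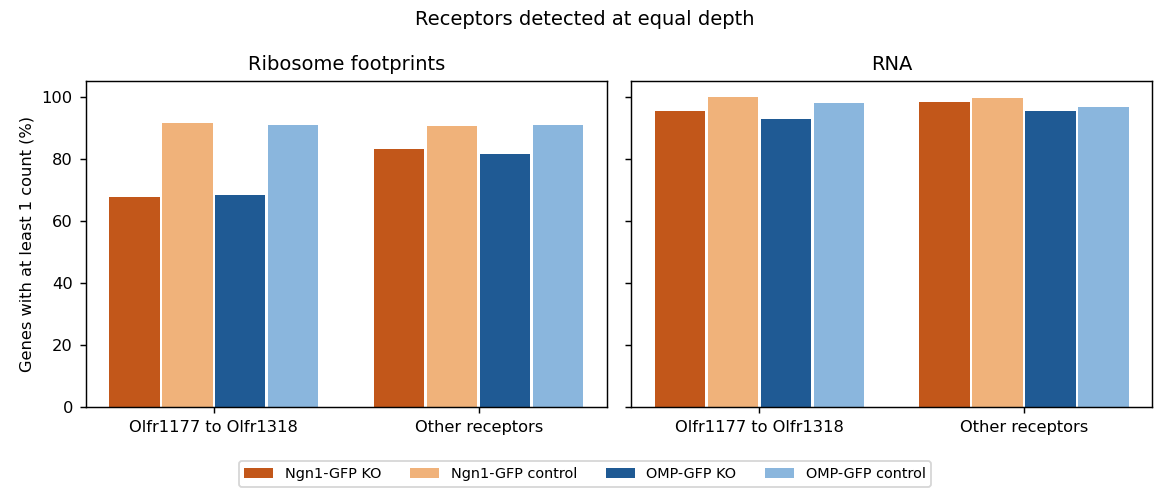
Share of receptor genes with at least 1 count (percent, vertical axis) after every column was thinned to the depth of the smallest column of its assay, for footprints (left) and RNA (right); bars are the 4 groups, each a single column. For footprints, 67.6% and 68.2% of Olfr1177 to Olfr1318 were detected in the 2 KO columns, against 91.4% and 90.9% in the controls.

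Footprints were also spread over fewer receptors. The effective number of members, from the Shannon entropy of their footprints, was 41.0 in Ngn1-GFP KO against 58.7 in Ngn1-GFP control, and 35.1 in OMP-GFP KO against 56.8 in OMP-GFP control. The 5 most abundant members took 34.2% of member footprints in Ngn1-GFP KO against 28.7% in Ngn1-GFP control, and 40.3% in OMP-GFP KO against 28.6% in OMP-GFP control. For the other receptors the effective number was 510 in Ngn1-GFP KO against 535 in Ngn1-GFP control, and 495 in OMP-GFP KO against 527 in OMP-GFP control. RNA detection was nearly complete, with 106 members in Ngn1-GFP KO against 111 in Ngn1-GFP control and 103 in OMP-GFP KO against 109 in OMP-GFP control. Member RNA was also spread over fewer genes, with effective numbers of 66.6 against 81.9 in Ngn1-GFP cells and 62.4 against 72.8 in OMP-GFP cells. For the other receptors these were 645 against 701 and 623 against 643. Effective numbers were not matched for depth, and the members had 1698 footprints in Ngn1-GFP KO against 3103 in Ngn1-GFP control.

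A group of members had no footprint in either KO column. Of the 73 members with at least 20 footprints over the 2 controls, 9 (12.3%) were at 0 in both KO columns, against 7 of 692 other receptors (1.01%) and 0.654% of all genes with that depth. They were Olfr1179, Olfr1198, Olfr1205, Olfr1225, Olfr1228, Olfr1242, Olfr1272, Olfr1278 and Olfr1279, and together had 0 footprints in Ngn1-GFP KO against 186 in Ngn1-GFP control, and 0 in OMP-GFP KO against 97 in OMP-GFP control. These sums follow from how the 9 were picked. Only 4 of the 9 had at least 20 footprints in the Ngn1-GFP pair, and 1 in the OMP-GFP pair. A count with that depth over the KO columns and 0 in the controls was not made. The RNA of the 9 differed from member to member. It summed to 406 reads in Ngn1-GFP KO against 2507 in Ngn1-GFP control (log2 −0.997 [−1.15, −0.85]) and 448 in OMP-GFP KO against 987 in OMP-GFP control (−0.88 [−1.04, −0.72]), with 5 of the 9 called lower in each population. Olfr1198 had 104 reads in Ngn1-GFP KO against 541 in Ngn1-GFP control and 165 in OMP-GFP KO against 186 in OMP-GFP control. Olfr1205 had no RNA read in Ngn1-GFP KO against 238 in Ngn1-GFP control, Olfr1279 had none in OMP-GFP KO against 20 in OMP-GFP control, and Olfr1179 had 1 there against 89. Olfr1225 went the other way in RNA, with 90 reads in Ngn1-GFP KO against 108 in Ngn1-GFP control, which is 2.58-fold higher after scaling, beside 0 against 29 footprints. The reverse pattern, footprints in both KO columns and in neither control, was met by Olfr1306 with 6 footprints in each KO column. This reverse rule has no minimum of 20, and without it 14 members had footprints in both controls and in neither KO column. Among the other 993 receptors 30 did so and 0 met the reverse rule, and among all genes 456 and 52. Olfr1248, Olfr1316 and Olfr1317 had 0 footprints in all 4 columns.

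As a share of all receptor reads, the members were lower in all KO columns. They took 6.20% of receptor footprints (exact binomial interval 5.92% to 6.49%) in Ngn1-GFP KO against 8.36% (8.08% to 8.65%) in Ngn1-GFP control, and 7.83% (7.57% to 8.10%) in OMP-GFP KO against 8.72% (8.43% to 9.03%) in OMP-GFP control. Their share of receptor RNA was 8.06% (7.91% to 8.23%) in Ngn1-GFP KO against 10.1% (10.04% to 10.2%) in Ngn1-GFP control, and 8.10% (7.96% to 8.25%) in OMP-GFP KO against 10.4% (10.3% to 10.6%) in OMP-GFP control. The typical member was low in every column. Median footprint RPKM was 2.11 in Ngn1-GFP KO against 4.08 in Ngn1-GFP control and 3.12 in OMP-GFP KO against 4.03 in OMP-GFP control, while the other receptors had medians of 5.04 against 4.58 and 4.80 against 5.34.

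Per length, Olfr1178, Olfr1288, Olfr1297, Olfr1301, Olfr1260, Olfr1195, Olfr1286 and Olfr1295 had the highest mean footprint levels. Olfr1178, at the proximal edge of the group, had 78.7 RPKM in Ngn1-GFP KO against 55.2 RPKM in Ngn1-GFP control, and 34.9 RPKM in OMP-GFP KO against 57.2 RPKM in OMP-GFP control, and was not called in either comparison. Olfr1297 had 33.4 against 26.3 RPKM in Ngn1-GFP KO and control, and 60.0 against 58.4 RPKM in OMP-GFP KO and control, and Olfr1195 had 27.4 against 23.2 RPKM and 35.2 against 38.9 RPKM. These 3 stayed within 2-fold of their controls. Olfr1260 was the most abundant member in Ngn1-GFP control and was called lower in both KO columns, with 17.0 RPKM in Ngn1-GFP KO against 71.4 RPKM in Ngn1-GFP control and 9.15 RPKM in OMP-GFP KO against 45.6 RPKM in OMP-GFP control. Olfr1288 was the most abundant in OMP-GFP KO and was called higher in both, with 30.9 RPKM in Ngn1-GFP KO against 11.9 RPKM in Ngn1-GFP control and 119 RPKM in OMP-GFP KO against 25.3 RPKM in OMP-GFP control. Olfr1301 was called lower in Ngn1-GFP KO alone, at 10.9 against 31.5 RPKM, and had 54.0 RPKM in OMP-GFP KO against 54.2 RPKM in OMP-GFP control. The difference between its 2 ratios was not tested.

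**Figure D2:**
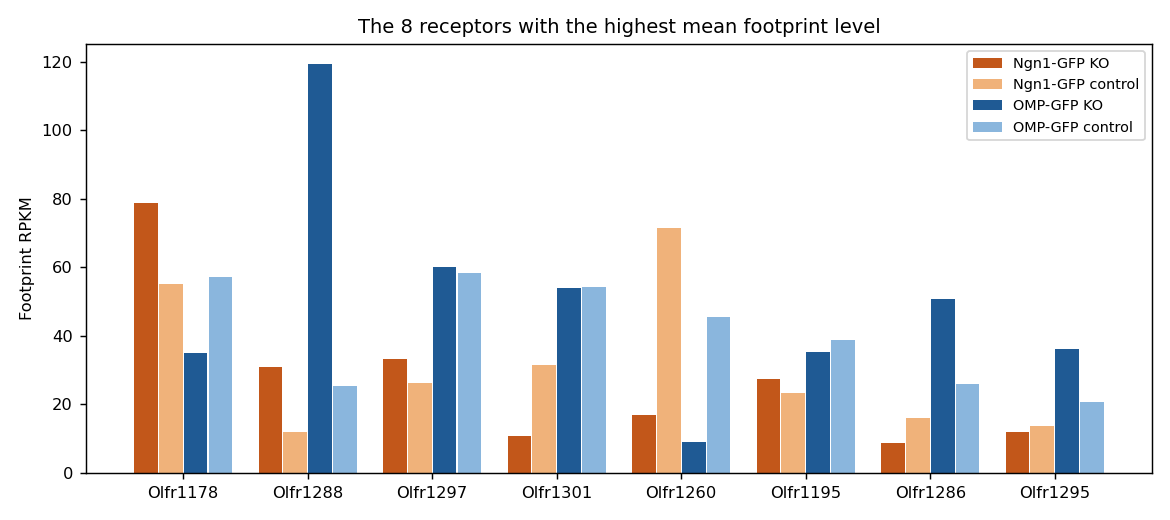
Footprint level (RPKM, vertical axis) of the 8 receptors with the highest mean over the 4 columns; each bar is the single deposited column of a group, so there is no error bar. Olfr1260 is lower in both KO columns than in the controls, and Olfr1288 reaches 119 RPKM in OMP-GFP KO against 25.3 RPKM in OMP-GFP control.

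In Ngn1-GFP cells, 20 of the 60 members with enough footprints were called lower in KO (33.3%) and 6 higher, where 10.8% of all genes were called lower and 6.49% higher. The median ratio of the 60 members was −0.64 on the log2 scale, against 0.24 for 660 other receptors, of which 100 were called lower and 141 higher, and −0.00 for all genes. Summed over all members the footprints were 1698 in KO against 3103 in control, a log2 ratio of −0.25 [−0.33, −0.16], while the other receptors together had 0.22 [0.19, 0.24]. The 51 members with fewer than 20 footprints in the pair are not in these counts. With at least 100 footprints in the pair, 10 members were left, of which 3 were called lower and 2 higher, and their median was 0.36, above 0.

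Of the members called lower in Ngn1-GFP KO, 7 had no footprint there. Olfr1199 had 0 footprints in Ngn1-GFP KO against 44 in Ngn1-GFP control, at least 9.53-fold lower, and Olfr1228 had 0 against 35, at least 7.58-fold lower. Olfr1181 and Olfr1242 each had 0 against 30, at least 6.50-fold lower, and Olfr1225 had 0 against 29, at least 6.28-fold lower. Olfr1229 and Olfr1278 each had 0 against 20, at least 4.33-fold lower. The others were counted in both columns, among them Olfr1183 with 4 against 44 footprints (log2 −2.84 [−4.78, −1.38]), Olfr1264 with 4 against 35 (−2.51 [−4.46, −1.02]), Olfr1211 with 5 against 37 (−2.27 [−3.97, −0.91]), Olfr1260 with 48 against 297 (−2.01 [−2.48, −1.56]), Olfr1301 with 31 against 132 (−1.47 [−2.08, −0.89]) and Olfr1271 with 28 against 114 (−1.40 [−2.05, −0.80]). Only Olfr1260, Olfr1271 and Olfr1301 rest on more than 100 footprints in the pair.

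The 6 members called higher in Ngn1-GFP KO were Olfr1193, Olfr1200, Olfr1209, Olfr1226, Olfr1258 and Olfr1288. Olfr1258 had 88 footprints in KO against 34 in control (1.99 [1.41, 2.61]) and Olfr1226 had 22 against 6 (2.50 [1.15, 4.09]). Olfr1200 had 54 against 24 (1.79 [1.07, 2.55]), Olfr1193 had 25 against 9 (2.10 [0.95, 3.38]) and Olfr1288 had 88 against 50 (1.44 [0.92, 1.97]). Neighbours could differ in direction. Olfr1199 and Olfr1200 are next to each other on the chromosome and were called in opposite directions, as were Olfr1209 and Olfr1211, Olfr1225 and Olfr1226, and Olfr1226 and Olfr1228, and there were 5 such pairs over the 2 KO comparisons.

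In OMP-GFP cells, 16 of 60 members were called lower in KO footprints and 7 higher (26.7% and 11.7%), where 8.54% of all genes were called lower and 7.12% higher. The median ratio was −0.39, against 0.08 for 656 other receptors, of which 92 were called lower and 103 higher. With at least 100 footprints in the pair, 13 members were left, 1 called lower and 3 higher, and the median was 0.12, above 0. The sums of the 2 blocks went in opposite directions, and that of the distal block rested on its leading members. The proximal block summed to 1520 footprints in OMP-GFP KO against 2000 in OMP-GFP control (−0.52 [−0.61, −0.42]), with 14 members called lower and 3 higher of 45. The distal block summed to 1530 against 1002 (0.49 [0.37, 0.61]), with 2 called lower and 4 higher of 15, and 30.0% of its footprints in OMP-GFP KO were from Olfr1288. Without Olfr1288, a set chosen after the data were seen, the distal block had 1071 footprints against 917 (0.10 [−0.02, 0.23]), and without Olfr1288 and Olfr1286 it had 880 against 832 (−0.04 [−0.18, 0.10]). In OMP-GFP RNA both blocks were lower in KO, at −0.25 [−0.29, −0.21] for the proximal and −0.15 [−0.24, −0.06] for the distal block. In Ngn1-GFP cells both blocks were lower, at −0.22 [−0.32, −0.12] for the proximal and −0.33 [−0.51, −0.16] for the distal block.

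The lowest members of OMP-GFP KO were again at 0. Olfr1180 had 0 footprints in OMP-GFP KO against 52 in OMP-GFP control, at least 18.8-fold lower, Olfr1280 had 0 against 48, at least 17.4-fold lower, Olfr1214 had 0 against 32, at least 11.6-fold lower, and Olfr1205 had 0 against 21, at least 7.61-fold lower. Olfr1256 had 14 against 66 (−2.36 [−3.30, −1.51]) and Olfr1260 had 35 against 152 (−2.24 [−2.81, −1.70]). These 4 members at 0 were among the 16 called lower. Those called higher were Olfr1209, Olfr1218, Olfr1233, Olfr1286, Olfr1288, Olfr1299 and Olfr1308. Olfr1288 had 459 footprints against 85 (2.31 [1.98, 2.66]), Olfr1209 had 130 against 53 (1.17 [0.70, 1.66]) and Olfr1286 had 191 against 85 (1.05 [0.67, 1.43]). Olfr1218 had 19 against 2 (3.13 [1.08, 6.27]), Olfr1308 had 33 against 9 (1.75 [0.66, 3.003]) and Olfr1299, whose window is printed above, had 53 against 18 (1.44 [0.64, 2.30]).

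RNA levels of the members were also lower. In Ngn1-GFP cells 42 of 110 members were called lower in KO RNA and 3 higher (38.2% and 2.73%), where 11.9% of all genes were called lower and 4.4% higher and 198 of 979 other receptors (20.2%) were called lower. The median RNA ratio was −0.71 for members and −0.15 for the other receptors. In OMP-GFP cells 29 of 103 members were called lower and 6 higher (28.2% and 5.83%), where 3.89% of all genes were called lower and 4.4% higher and 67 of 912 other receptors (7.35%) were called lower. The median RNA ratio there was −0.24 for members and 0.14 for the other receptors. The control column of Ngn1-GFP RNA is the one with 597 genes of its own, and its part in the Ngn1-GFP counts was not tested. The OMP-GFP ratios use no reads from that column, but the TMM scaling was over all RNA columns together. Sustentacular marker RNA also differed in the OMP-GFP pair, at 336 CPM in KO against 82.2 CPM in control. The part of this difference in the OMP-GFP counts was not tested.

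Many of the same members were called lower in RNA in both populations, whose columns are not shared apart from their common scaling. There were 23 such members of 103 with enough RNA in both pairs (22.3%), against 34 of 909 other receptors (3.74%) and 1.04% of all genes. They were 54.8% of the 42 called lower in Ngn1-GFP KO and 79.3% of the 29 called lower in OMP-GFP KO. None of the 103 was called higher in both, where 0.42% of all genes were. With at least 100 RNA reads in each pair, a minimum chosen after the data were seen, 12 of 69 members (17.4%), 19 of 696 other receptors (2.73%) and 0.477% of all genes were lower in both. Across the 103 members the 2 RNA ratios had a Pearson correlation of 0.68, against 0.30 across the 909 other receptors. The points share the 4 RNA columns, their depth and, among neighbours, the same stretch of chromosome.

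**Figure D3:**
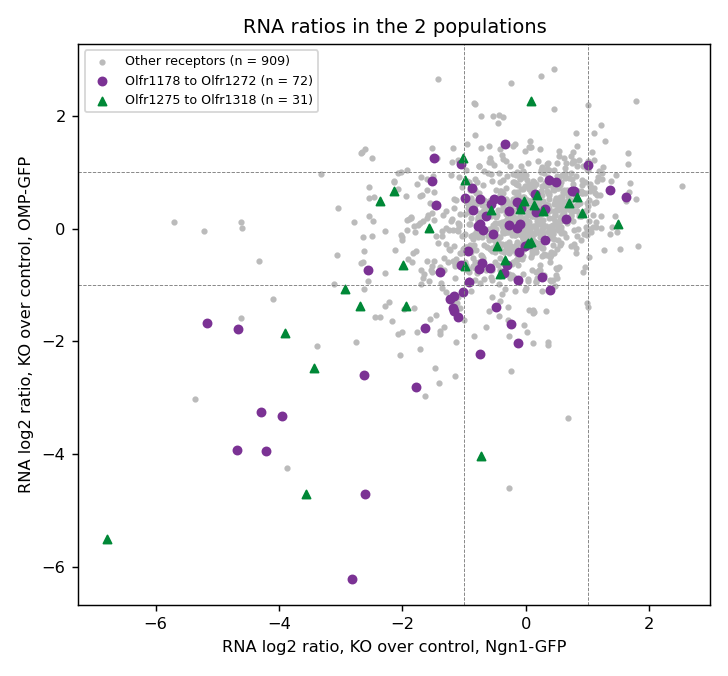
RNA log2 ratio of KO over control in Ngn1-GFP cells (horizontal axis) against that in OMP-GFP cells (vertical axis), 1 point per receptor with at least 20 reads in both pairs; circles are Olfr1178 to Olfr1272, triangles Olfr1275 to Olfr1318, grey points the other receptors, and dashed lines mark 2-fold. The 23 members called lower in both lie in the lower left, where 34 of 909 other receptors were called.

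The 23 members lay partly in runs of neighbouring genes, where neighbours are consecutive members along the chromosome. The run from Olfr1179 to Olfr1183 (chromosome 2, 88402009 to 88462253), made of Olfr1179, Olfr1180, Olfr1181 and Olfr1183 of MOR225 and MOR230, summed to 152 RNA reads in Ngn1-GFP KO against 1789 in Ngn1-GFP control (−1.93 [−2.18, −1.69]), and 135 in OMP-GFP KO against 777 in OMP-GFP control (−2.27 [−2.54, −2.00]). Olfr1181 was 36.0-fold lower in Ngn1-GFP KO, at 4 reads against 445. Olfr1180 was 15.5-fold lower in OMP-GFP KO, at 14 reads against 259 (−3.95 [−4.84, −3.18]), and Olfr1179 had 1 read in OMP-GFP KO against 89 in OMP-GFP control (−6.22 [−11.54, −3.70]). All 4 genes were called lower in RNA in both populations. The adjacent Olfr1178 was not, with 430 reads in Ngn1-GFP KO against 849 in Ngn1-GFP control (0.65 [0.48, 0.82]) and 291 in OMP-GFP KO against 310 in OMP-GFP control (0.17 [−0.07, 0.40]).

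The run from Olfr1201 to Olfr1206 (chromosome 2, 88794384 to 88865530) held Olfr1201, Olfr1202, Olfr1205, Olfr1204 and Olfr1206 of MOR230 and MOR232. It summed to 42 RNA reads in Ngn1-GFP KO against 1498 in Ngn1-GFP control (−3.53 [−4.01, −3.09]), and 75 in OMP-GFP KO against 639 in OMP-GFP control (−2.83 [−3.20, −2.48]). Olfr1201 had no RNA read in either KO column, against 143 in Ngn1-GFP control and 36 in OMP-GFP control, at least 15.4-fold and 10.03-fold lower. Olfr1205 had 0 RNA reads in Ngn1-GFP KO against 238 in Ngn1-GFP control, at least 25.6-fold lower, and 7 in OMP-GFP KO against 127 in OMP-GFP control (−3.92 [−5.27, −2.84]). The neighbour Olfr1200 had 71 reads in Ngn1-GFP KO against 600 in Ngn1-GFP control and 307 in OMP-GFP KO against 274 in OMP-GFP control, so it was called lower in Ngn1-GFP KO and not in OMP-GFP KO.

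In the distal block the run from Olfr1278 to Olfr1281 (chromosome 2, 111292270 to 111374131) held 4 members of MOR245 and MOR248. Its end is that of the long annotated gene of Olfr1280, which also spans Olfr1282 and Olfr1283, so these lie inside the interval and outside the run. It summed to 43 RNA reads in Ngn1-GFP KO against 1374 in Ngn1-GFP control (−3.37 [−3.84, −2.93]), and 28 in OMP-GFP KO against 326 in OMP-GFP control (−3.28 [−3.89, −2.72]). Olfr1280 had 1 RNA read in each KO column, against 342 in Ngn1-GFP control (−6.79 [−12.10, −4.30]) and 54 in OMP-GFP control (−5.50 [−10.83, −2.96]). Olfr1281 had 19 reads in Ngn1-GFP KO against 695 in Ngn1-GFP control (−3.56 [−4.30, −2.91]) and 6 in OMP-GFP KO against 187 in OMP-GFP control (−4.70 [−6.17, −3.55]). Olfr1283, separated from the run by Olfr1282, was also called lower in both, at −2.69 [−3.58, −1.92] in Ngn1-GFP cells and −1.37 [−2.50, −0.35] in OMP-GFP cells. Olfr1282 had 0 against 83 reads in Ngn1-GFP cells and too few in OMP-GFP cells.

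Olfr1263 and Olfr1264 formed a shorter run with smaller differences, at −1.08 [−1.25, −0.90] in Ngn1-GFP cells and −1.15 [−1.35, −0.95] in OMP-GFP cells. The remaining members called lower in RNA in both populations stood singly: Olfr1186, Olfr1218, Olfr1220, Olfr1232, Olfr1256, Olfr1260, Olfr1283 and Olfr1317. Of these, Olfr1186 had 11 reads in Ngn1-GFP KO against 207 in Ngn1-GFP control and 0 in OMP-GFP KO against 94 in OMP-GFP control, at least 26.2-fold lower in OMP-GFP cells. Olfr1256 was 3.44-fold lower in Ngn1-GFP KO, with 61 reads against 650, and 7.01-fold lower in OMP-GFP KO, with 36 reads against 302. Each run held members of 2 MOR families. Of the 8 genes of MOR230, which has members in both proximal runs, 7 were called lower in RNA in Ngn1-GFP KO, 5 in OMP-GFP KO and 5 in both. Of MOR232 3 of 7 were called lower in both, of MOR225 3 of 10, of MOR233 3 of 17, of MOR245 3 of 17 with enough reads and of MOR248 3 of 14. Whether the calls go with the family or with the position was not tested. By family the lowest RNA sum among families of at least 5 genes was that of MOR230, at −1.28 [−1.42, −1.15] in Ngn1-GFP cells and −1.10 [−1.24, −0.97] in OMP-GFP cells.

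**Figure D4:**
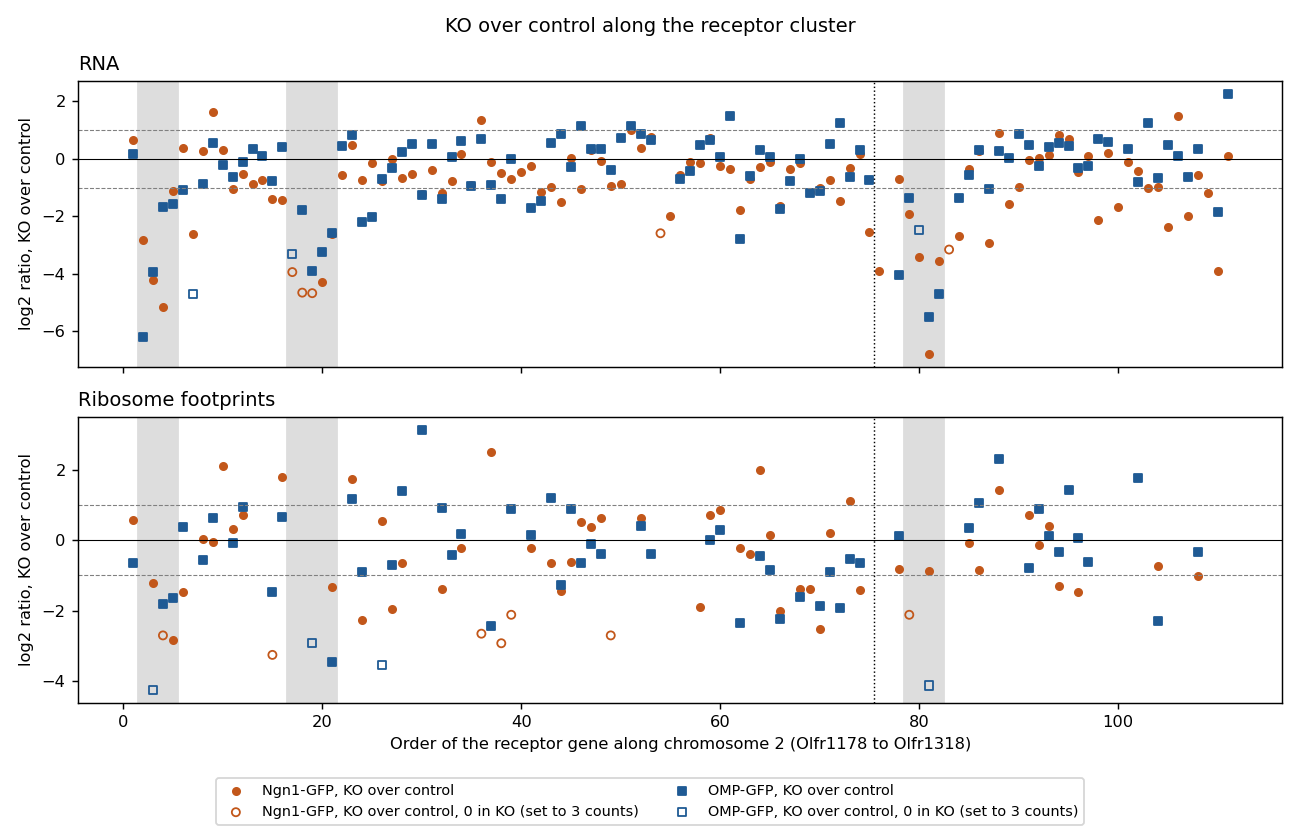
Log2 ratio of KO over control (vertical axis) for RNA (top) and footprints (bottom) of each member with at least 20 counts in the pair, in order along the chromosome (horizontal axis, not to scale); circles are Ngn1-GFP and squares OMP-GFP cells, open symbols are members at 0 in KO and set to 3 counts, grey bands are the 3 runs of at least 4 neighbours called lower in RNA in both populations, and the dotted line is the gap between the blocks. The runs lie around Olfr1181, Olfr1205 and Olfr1280, where the RNA points of both populations are low by the choice of the bands.

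Footprints were not used to pick the 23 members with low RNA in both populations, and their sum was low as well. These members summed to 144 footprints in Ngn1-GFP KO against 727 in Ngn1-GFP control (−1.71 [−1.98, −1.45]), and 144 in OMP-GFP KO against 579 in OMP-GFP control (−2.13 [−2.40, −1.86]). By member, 7 of the 11 with enough footprints were called lower in Ngn1-GFP KO and none higher, and in OMP-GFP KO 9 of 11 were called lower and Olfr1218 higher. Olfr1218 had 6 footprints in Ngn1-GFP KO against 5 in Ngn1-GFP control and 19 in OMP-GFP KO against 2 in OMP-GFP control, Olfr1220 had 37 in OMP-GFP KO against 18 in OMP-GFP control, and Olfr1317 had none in any column. The remaining 88 members summed to 1554 against 2376 in Ngn1-GFP cells (0.01 [−0.08, 0.10]) and to 2906 against 2423 in OMP-GFP cells (0.14 [0.06, 0.22]). The other receptors had 0.22 [0.19, 0.24] in Ngn1-GFP cells and 0.07 [0.05, 0.09] in OMP-GFP cells. Such sums are weighted to abundant members, such as Olfr1288, and do not describe each member. Members outside the 23 were also called lower in footprints. Of the 20 called lower in Ngn1-GFP KO, 7 were among the 23, and of the 16 in OMP-GFP KO, 9 were. By run, Olfr1179 to Olfr1183 had 11 footprints in Ngn1-GFP KO against 118 in Ngn1-GFP control and 31 in OMP-GFP KO against 153 in OMP-GFP control. Olfr1201 to Olfr1206 had 9 against 50 and 2 against 61, and Olfr1278 to Olfr1281 had 16 against 83 and 0 against 75. Each run was lower in both footprint pairs, while its low RNA is how it was picked. The smallest footprint difference of a run was 3.37-fold, for Olfr1278 to Olfr1281 in Ngn1-GFP cells.

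Footprints alone were called lower in both populations for 7 of 52 members with enough footprints in both pairs (13.5%), against 22 of 570 other receptors (3.86%) and 1.45% of all genes. These were Olfr1181, Olfr1183, Olfr1199, Olfr1206, Olfr1234, Olfr1260 and Olfr1264, which are 35.0% of the 20 called lower in Ngn1-GFP KO and 43.8% of the 16 called lower in OMP-GFP KO. They summed to 74 footprints in Ngn1-GFP KO against 523 in Ngn1-GFP control and 116 in OMP-GFP KO against 387 in OMP-GFP control. Olfr1209 and Olfr1288 were called higher in both (3.85% of the 52), against 27 of 570 other receptors (4.74%) and 0.839% of all genes. Across the 52 members the 2 footprint ratios had a Pearson correlation of 0.27, against 0.24 across 570 other receptors.

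Single members followed RNA and footprints to different degrees. For Olfr1260, RNA was 66 reads in Ngn1-GFP KO against 633 in Ngn1-GFP control (−1.63 [−2.02, −1.26]) and 74 in OMP-GFP KO against 299 in OMP-GFP control (−1.76 [−2.14, −1.38]), beside footprint ratios of −2.01 and −2.24. For Olfr1288, RNA was 71 reads in Ngn1-GFP KO against 117 in Ngn1-GFP control (0.91 [0.46, 1.35]) and 70 in OMP-GFP KO against 69 in OMP-GFP control (0.28 [−0.22, 0.78]), beside footprint ratios of 1.44 and 2.31. Olfr1214 had 0 against 32 footprints in OMP-GFP cells beside 125 against 245 RNA reads (−0.71 [−1.03, −0.39]). Of the 20 members called lower in footprints in Ngn1-GFP KO, 9 (45.0%) were called lower in RNA, which is 21.4% of the 42. In OMP-GFP KO it was 9 of 16 (56.2%), which is 31.0% of the 29. Among all genes it was 250 of 1357 in Ngn1-GFP KO and 54 of 950 in OMP-GFP KO. Among the other receptors it was 31 of 100 and 14 of 92. None of the 6 and 7 members called higher in footprints was called higher in RNA, where 119 of 806 and 106 of 772 of all genes were. So few members do not set the group apart from all genes in this. Across members the footprint and RNA ratios had a Pearson correlation of 0.31 in Ngn1-GFP cells and 0.52 in OMP-GFP cells (n = 60 each), against 0.25 (n = 660) and 0.31 (n = 654) across the other receptors. Footprint and RNA columns come from the same sorted populations, and the low counts of both limit these values.

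**Figure D5:**
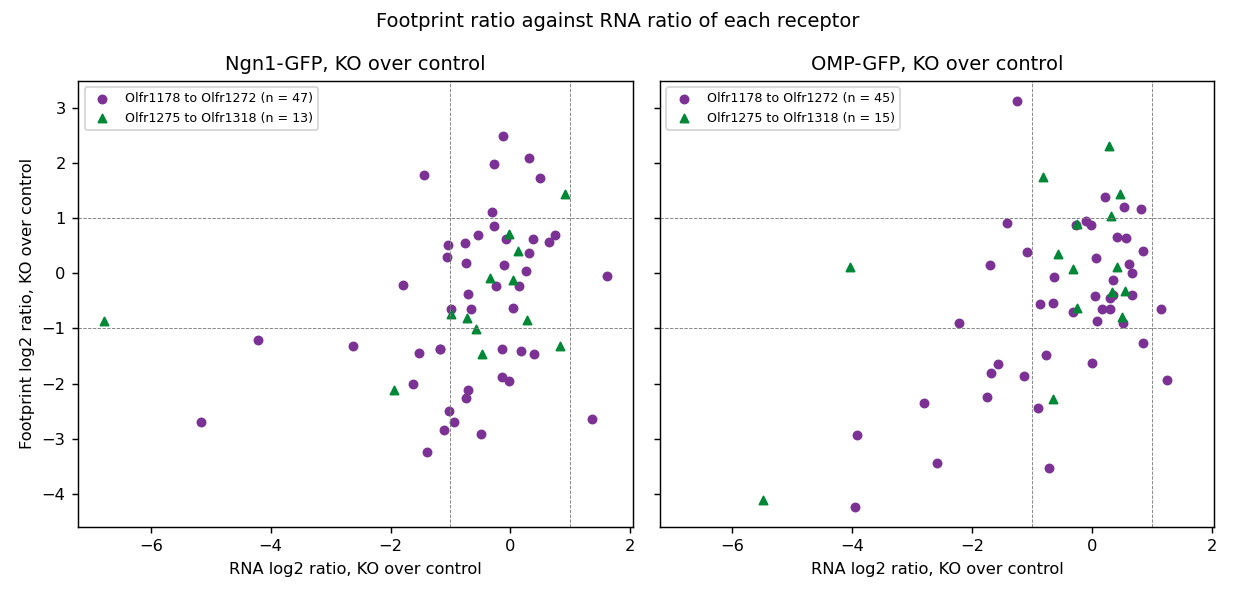
Footprint log2 ratio (vertical axis) against RNA log2 ratio (horizontal axis) of KO over control for each member with at least 20 counts in both assays, in Ngn1-GFP cells (left) and OMP-GFP cells (right); circles are Olfr1178 to Olfr1272, triangles Olfr1275 to Olfr1318, dashed lines mark 2-fold, and members at 0 are set to 3 counts. The points of the 8 lowest RNA ratios in each panel have footprint ratios below 0, except Olfr1277 in OMP-GFP cells at 0.12. The cut at 8 follows no rule. Beyond it in OMP-GFP cells, members with low RNA also lie above 0 in footprints. They include the 1 gene of MOR235 (RNA −1.70, footprints 0.16), Olfr1220 (−1.41, 0.92) and Olfr1218 (−1.25, 3.13).

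Footprints per RNA read gave calls in both directions. Of 60 members in each population, 15 were called higher and 12 lower in Ngn1-GFP KO, where 8.02% of all genes were called higher and 10.1% lower, and 10 were called higher and 10 lower in OMP-GFP KO, where 7.1% were called higher and 9.07% lower. The medians were 0.01 in Ngn1-GFP cells and −0.21 in OMP-GFP cells, against 0.15 and −0.07 for the other receptors. Summed over all members, footprints per RNA read were higher in KO by 0.25 [0.16, 0.34] on the log2 scale in Ngn1-GFP cells and 0.14 [0.06, 0.22] in OMP-GFP cells. The other receptors were higher by 0.35 [0.33, 0.38] in Ngn1-GFP cells and stood at −0.09 [−0.12, −0.07] in OMP-GFP cells. Of them, 25.8% were called higher and 11.5% lower in Ngn1-GFP KO, and 12.7% higher and 16.5% lower in OMP-GFP KO, so the share called higher in Ngn1-GFP KO was near that of the members. The authors' translational efficiency, a ratio of the footprint to the RNA level of a gene in a column, had medians of 5.10 in Ngn1-GFP KO against 2.94 in Ngn1-GFP control and 3.35 in OMP-GFP KO against 3.65 in OMP-GFP control, over 28, 48, 35 and 45 members with at least 20 counts in both assays. Receptors as a class stood above other genes on this scale, with medians of 4.498, 3.46, 3.63 and 3.66 for the other receptors and 1.38, 1.54, 1.26 and 1.27 for genes that are no receptor, in the same order of columns. The minimum of 20 footprints favours efficient genes among those with little RNA.

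Among the 18 members with at least 20 footprints in every column, Olfr1288, Olfr1286, Olfr1231, Olfr1295 and Olfr1260 had the highest authors' efficiency and Olfr1222, Olfr1271, Olfr1258, Olfr1240 and Olfr1253 the lowest. Olfr1288 had 15.2 in Ngn1-GFP KO against 11.4 in Ngn1-GFP control, and 59.3 in OMP-GFP KO against 14.5 in OMP-GFP control. Olfr1222 had 0.816 against 1.15 in Ngn1-GFP cells and 0.676 against 0.927 in OMP-GFP cells, and was below 1.2 in all 4 columns. Olfr1258 had 7.10 in Ngn1-GFP KO against 1.61 in Ngn1-GFP control and 0.727 in OMP-GFP KO against 1.24 in OMP-GFP control. Without any minimum, and as a ratio to footprints per RNA read over all genes of the same column, the distal block stood at 2.66 in Ngn1-GFP KO against 2.33 in Ngn1-GFP control and 5.51 in OMP-GFP KO against 3.68 in OMP-GFP control. The proximal block stood at 1.56 against 1.42 in Ngn1-GFP cells and 1.11 against 1.39 in OMP-GFP cells. The distal block was above the proximal block in each column, and its 5 most abundant members held 50.8% to 80.3% of its footprints.

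Between the control populations, more members were called higher than lower in mature cells in footprints, and more lower than higher in RNA. In footprints 21 of 73 members were called higher in OMP-GFP control than in Ngn1-GFP control and 5 lower (28.8% and 6.85%), where 6.11% of all genes were called higher and 17.4% lower. The other receptors were near the members, with 23.1% called higher and 8.24% lower. The median was 0.40 for members and 0.44 for 692 other receptors, and Olfr1221 led with 33 footprints in OMP-GFP control against 4 in Ngn1-GFP control, followed by Olfr1269 with 21 against 2. Olfr1225, with 2 against 29, and Olfr1216, with 6 against 41, were the lowest. In RNA, 6 of 111 members were called higher and 19 lower in OMP-GFP control than in Ngn1-GFP control (5.41% and 17.1%). Of all genes, 3.43% were called higher and 24.1% lower, and of the other receptors 11.6% higher and 15.9% lower. The share of members called lower in RNA was thus below that of all genes and near that of the other receptors. The median was 0.11 for members and 0.11 for other receptors.

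In the KO columns 19 of 52 members were called higher in footprints in OMP-GFP KO than in Ngn1-GFP KO and 8 lower (36.5% and 15.4%). Of all genes, 11.3% were called higher and 18.4% lower, and of 651 other receptors 27.8% higher and 16.7% lower. The distal block was 3.14-fold higher in OMP-GFP KO, with 1530 footprints against 421 (1.65 [1.49, 1.81]), while the proximal block had 1520 against 1277 (0.04 [−0.07, 0.15]). Olfr1299 had 53 footprints in OMP-GFP KO against 2 in Ngn1-GFP KO, Olfr1286 had 191 against 24 and Olfr1301 had 208 against 31. Olfr1258 had 23 in OMP-GFP KO against 88 in Ngn1-GFP KO, and Olfr1193 had 5 against 25. Olfr1214 was at 0 in OMP-GFP KO against 20 in Ngn1-GFP KO, while Olfr1199 had 23 in OMP-GFP KO and Olfr1229 had 20, both against 0 in Ngn1-GFP KO. In RNA, 18 of 91 members were called higher and 10 lower in OMP-GFP KO than in Ngn1-GFP KO, where 4.77% of all genes were called higher and 16.4% lower, and the distal and proximal blocks were alike at 0.49 [0.39, 0.59] and 0.42 [0.38, 0.47]. The KO comparisons and these comparisons share columns and are given side by side.

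None of 3 receptor transport genes (Rtp1, Rtp2 and Reep1, which carry receptors to the cell surface), 10 signal transduction genes and 11 genes of receptor choice was called in either KO comparison, in footprints or RNA. Their median footprint ratios lay between −0.06 and 0.23 and their median RNA ratios between −0.01 and 0.25. Mature neuron markers had medians of 0.17 in Ngn1-GFP and 0.19 in OMP-GFP footprints, with 0 of 11 called.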

How the data were processed

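Footprints and input RNA were measured in 4 sorted populations. Cells were released with papain and libraries made with a SMARTer stranded low-input kit, per the labels' protocols. STAR, cutadapt, FastQC and the mm10 build are named without versions or order, per the submitters' processing notes. How reads that match several receptors were counted, and how the 2 libraries of a group were combined, is not given in the sources used. Per the file headers, the deposited table gives for each group the read counts over coding sequences for footprints and RNA, the authors' coding length, footprint RPKM, RNA TPM and translational efficiency. The deposited RPKM and TPM values are levels per length, and the authors' translational efficiency is a ratio of the footprint to the RNA level. The RNA columns name a group and no library of their own, and were matched to groups by name.

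With 1 column per group and assay, no test was run. Counts were scaled with TMM in edgeR 4.0.16 (R 4.3.3) over 13479 genes for footprints and 16388 for RNA (filterByExpr, minimum count 10, minimum total 15). Log2 ratios have exact conditional binomial 95% intervals, or approximate ones with 0.5 added to each count for footprints per RNA read. Members were called at 2-fold or more where a pair held 20 or more counts, with an interval that excluded 1, and a 0 was set to 3 counts in folds. Shares have exact Clopper-Pearson intervals. Detection was thinned by the hypergeometric distribution. The code was tested on simulated counts. Python 3.11.15, numpy 2.4.6, pandas 2.3.3, scipy 1.17.1 and matplotlib 3.10.9 were used, with DESeq2 1.42.0 for alternative size factors. Promoter windows, coordinates, biotypes and MOR families came from RefSeq (GRCm38.p6) by symbol. No protein sequences were used here. The name of the Cre driver and the precursor marker list are not reported here.

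The members and gene lists were chosen with earlier results of these data known. Genes named by rule were the 8 members with the highest mean footprint RPKM, the 5 called members in each direction whose interval bound lay farthest from 0 in each pair of groups, the 5 highest and 5 lowest efficiencies among members with 20 footprints in every column, members at 0 in one column of a pair with at least 20 footprints, and up to 4 neighbouring pairs called in opposite directions. Members in the runs of low RNA, those at 0 in both KO columns and the other members named were chosen after their values were seen. Alternatives were other scaling, count minimums, detection thresholds, thinning and sets of members.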

Additional observations from a re-analysis of the deposited data

Results flagged for a closer look

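A few members were called in opposite directions in the KO comparisons of the 2 populations. These differences were not tested, since each group has 1 column. Olfr1226 had 22 footprints in Ngn1-GFP KO against 6 in Ngn1-GFP control, a log2 ratio of 2.50, and 7 in OMP-GFP KO against 35 in OMP-GFP control, a log2 ratio of −2.44. Its RNA ratios were −0.12 and −0.90.

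For 3 members the RNA calls were opposite, all lower in Ngn1-GFP KO and higher in OMP-GFP KO. Olfr1239 had 23 RNA reads in Ngn1-GFP KO against 147 in Ngn1-GFP control (log2 −1.05) and 98 in OMP-GFP KO against 53 in OMP-GFP control (1.15). Olfr1269 had 29 against 251 (−1.48) and 48 against 24 (1.26), and Olfr1309 had 12 against 75 (−1.01) and 48 against 24 (1.26).

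Among 13 receptors of the same number range with a pseudogene suffix, which are no members, Olfr1191-ps1 was called higher in OMP-GFP KO footprints, with 54 against 8 (log2 2.63). In Ngn1-GFP cells it had 1 footprint in KO against 12 in control. Its RNA was 187 reads in OMP-GFP KO against 120 in OMP-GFP control.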

How the results depend on the processing

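No paired analysis was possible because the table has 1 column per group and its columns carry no replicate number, and for the same reason no replicate could be left out. Leaving out members with near-identical proteins was not run, because no protein sequences were used here. All 111 members have a RefSeq protein, so leaving out those without one removed no member. The values recomputed that way are counted among the 181 below and could only stay the same.

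Of 224 counts, sums and shares recomputed, 181 stayed within the limits set for them, 42 moved and 1 changed sign. The last was the summed distal block in OMP-GFP footprints, at 0.104 without Olfr1288 and −0.0391 without Olfr1288 and Olfr1286, against 0.49 with all its members; these sets were added after the data were seen. With at least 100 counts in the pair, Ngn1-GFP KO had 2 members called higher and 3 lower in footprints (median log2 0.36, above 0) and 2 higher and 1 lower in footprints per RNA read. OMP-GFP KO had 3 higher and 1 lower in footprints (median 0.12, above 0), 1 higher and 18 lower in RNA, and 3 higher and 1 lower in footprints per RNA read (median 0.35, above 0). OMP-GFP over Ngn1-GFP gave 3 higher and 0 lower in control footprints, 6 higher and 2 lower in KO footprints, and 8 higher and 4 lower in KO RNA. At that minimum 1 member was lower in both KO columns in footprints and 12 in RNA, an alternative added after the data were seen. With no minimum, 31 members were lower in Ngn1-GFP KO footprints, 11 higher and 33 lower in OMP-GFP KO footprints, 14 lower in OMP-GFP KO over Ngn1-GFP KO footprints, and 16 lower in footprints in both KO columns.

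With library size alone, the log2 ratio of summed member counts was −0.44 in Ngn1-GFP RNA, 0.13 in Ngn1-GFP footprints per RNA read, −0.17 in OMP-GFP footprints, 0.27 and 0.13 in footprints and RNA of OMP-GFP over Ngn1-GFP controls, and 0.41 and 0.32 in those of the KO columns. Without the most abundant member, the share of receptor footprints was 5.40% in Ngn1-GFP KO, 7.62% in Ngn1-GFP control, 6.73% in OMP-GFP KO and 8.19% in OMP-GFP control, and the share of receptor RNA 7.71%, 9.78%, 7.64% and 10.05% in the same order. Per base of coding length the RNA share in Ngn1-GFP control was 10.2%. Members with at least 10 footprints numbered 41 in Ngn1-GFP KO and 67 in OMP-GFP control. DESeq2 size factors, TMM without the genes of one column (added after the data were seen), thinning by receptor counts and the fold without the interval moved none of these counts, sums and shares past the limits.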

Other observations

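The 13 receptors with a pseudogene suffix in the same number range together had 91 footprints in Ngn1-GFP KO against 217 in Ngn1-GFP control, and 176 in OMP-GFP KO against 131 in OMP-GFP control. Their RNA summed to 636 reads in Ngn1-GFP KO against 3222 in Ngn1-GFP control, and 688 in OMP-GFP KO against 872 in OMP-GFP control. Footprints were found for 8 of them in Ngn1-GFP KO against 11 in Ngn1-GFP control, and 7 in OMP-GFP KO against 9 in OMP-GFP control. Olfr1177-ps had 61 against 52 in Ngn1-GFP cells and 51 against 44 in OMP-GFP cells, while Olfr1192-ps1 had 8 against 50 and 2 against 15.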
